A study of Mus musculus with 6 samples.

Results

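The autophagy and mitophagy genes described here are 34 genes chosen by symbol, from the kinases that start an autophagosome to the lysosomal protease that digests its contents. All 34 symbols were found, each on 1 row, among the 23282 rows of the count tables, and all 34 passed the filter on low counts that left 11700 genes for testing. RNA was sequenced from whole gastrocnemius, a mixed calf muscle, of 20-month-old male wild-type C57/BL6J mice, 3 given inotodiol and 3 given vehicle, with 1 library per mouse. The compound, a triterpenoid found in the chaga mushroom, was dosed orally at 0.35 mg/kg per day over 10 weeks, and the vehicle was 40% polyethylene glycol with 5% Tween 80 and 0.9% saline. The series title links the compound to age-related muscle wasting, mitochondrial function and liver X receptor beta, so the question for these genes is whether transcripts of the pathway that removes worn mitochondria differed between treated and untreated old muscle. The 6 mice shared sex, age, strain and genotype, and no young mice were among the samples analysed here.

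Autophagy encloses cytoplasm or an organelle in a double membrane and delivers it to the lysosome. The ULK1 kinase complex starts the process, the beclin 1 lipid kinase complex marks the growing membrane with phosphatidylinositol 3-phosphate, and conjugating enzymes attach LC3 and GABARAP proteins to that membrane, where cargo receptors bind them. In mitophagy the cargo is a mitochondrion, marked either by PINK1 with parkin or by receptors in its outer membrane such as BNIP3, BNIP3L and FUNDC1. Skeletal muscle depends on this turnover to keep its mitochondria sound, while FoxO factors raise several of the genes during fasting and denervation, and TFEB controls many lysosomal genes. Transcript levels do not measure the flow of cargo through the pathway.

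None of the 34 genes differed between inotodiol and vehicle in edgeR's quasi-likelihood test with Benjamini-Hochberg adjustment at 0.05, where the smallest adjusted p among them was 0.96. DESeq2 and limma-voom likewise called 0 of the 34. Over all genes tested edgeR called 0, or 0% of 11700. At an unadjusted p under 0.05 there were 2 of the 34, Ctsl and Atg16l1, both lower with inotodiol, against 4.87% of all genes in either direction, 2.21% lower and 2.67% higher. The same 2 genes were those whose 3 inotodiol values all lay below the 3 vehicle values. Over all genes 5.26% were parted in that direction and 5.15% in the other, and 0 of the 34 were parted with inotodiol higher. So 5.88% of the 34 had an unadjusted p under 0.05, near the share among all genes. With single libraries left out the count ran from 0, without vehicle replicate 1 or without inotodiol replicate 1, to 4 without inotodiol replicate 2, where Atg13 and Gabarapl1 joined with higher values.

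The log2 fold changes of inotodiol over vehicle were centred on 0. Their median was -0.012 over the 34 genes and -0.00073 over all genes tested, with 16 of the 34 above 0, or 47.1% against 49.9% of all genes, and 18 below. They ran from -0.54 for Atg16l1 to 0.41 for Atg13. The median standard error was 0.17, with a range from 0.12 for Lamp1 to 0.30 for Ambra1, against a median of 0.28 over all genes. The 95% interval lay within a 2-fold change either way for 33 of the 34 genes (60.2% of all genes) and within a 1.5-fold change for 21 (28.7% of all genes). The single gene whose interval reached past 2-fold was Atg16l1. Depth differed too, with a median of 504 counts per library for the 34 genes against 126 for all genes tested. Counting error alone gave a coefficient of variation from 1.23% for Sqstm1 to 10.5% for Ambra1, which had 67 to 109 counts per library.

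**Figure D1:**
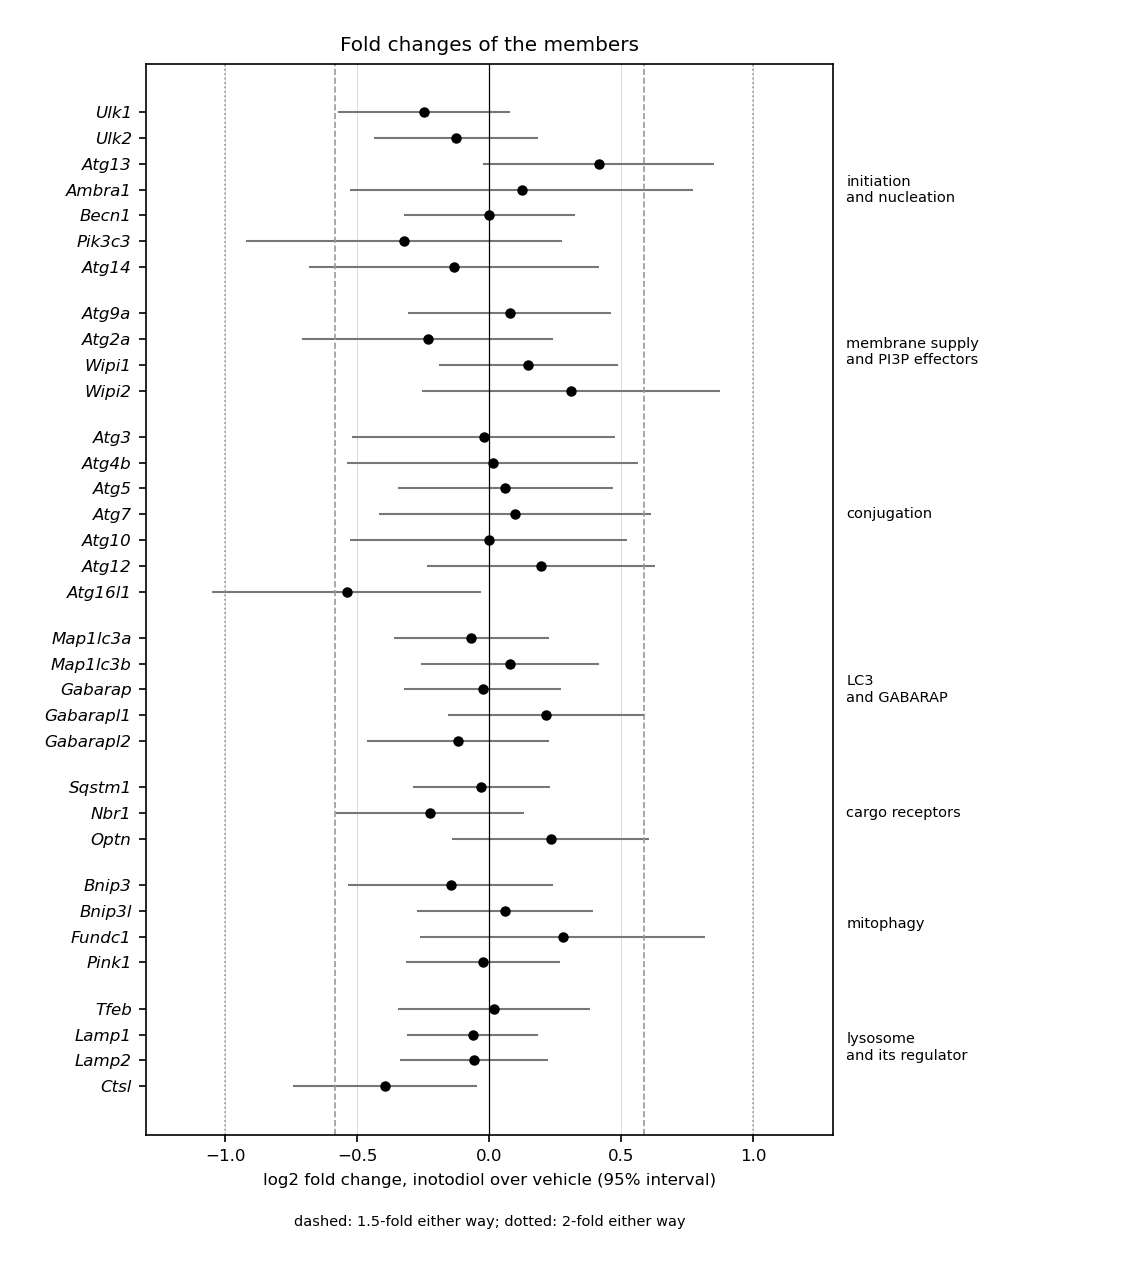
Log2 fold change of inotodiol over vehicle for each of the 34 genes (points) with its 95% interval (lines), in the order of their roles from top to bottom; dashed and dotted lines mark 1.5-fold and 2-fold changes. The intervals of Atg16l1 and Ctsl lie below 0, those of the other 32 genes cross it, and the interval of Atg16l1 alone passes the 2-fold line.

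Libraries held from 8961893 to 9953764 counts. The 12 skeletal muscle markers, among them Acta1, Ckm and Myh4, were all detected and together held 164075 to 178778 CPM (counts scaled to library size with TMM factors), with a median log2 fold change of 0.085. Markers of other cells had median log2 fold changes of -0.56 for macrophages, -0.21 for fibroblasts, 0.15 for endothelium, 0.58 for erythroid cells, -0.074 for adipocytes, 0.35 for Schwann cells and 2.90 for hepatocytes, whose 15 markers summed to 39.1 to 93.5 CPM in vehicle and 109 to 692 CPM in inotodiol libraries. The precursor ribosomal RNA Rn45s took 3.97% to 6.82% of counts in vehicle and 4.33% to 10.2% in inotodiol libraries. With scaling by library totals the median over all genes was -0.12 and that of the 34 genes -0.13, with 26 of them below 0, and with Rn45s removed first these medians were -0.074 and -0.084. In whole muscle, fewer cells of a type and less RNA per cell cannot be told apart.

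Tfeb, which encodes the transcription factor that switches on lysosomal and autophagy genes (chromosome 17, 47737030 to 47792419), had 43.6, 54.1 and 62.7 CPM in vehicle mice 1 to 3 and 57.3, 52.4 and 52.7 CPM in inotodiol mice 1 to 3. The inotodiol values lay inside the vehicle range. Its log2 fold change was 0.017 ± 0.17 (SE), with a 95% interval from -0.35 to 0.38, and was -0.10 when scaled by library totals. TFEB binds the CLEAR element, whose core is the palindrome CACGTG, a sequence that several other factors of the same class bind too. RefSeq promoters (GRCm38.p6) were at hand for 28 of the 34 genes, and Atg12, Atg16l1, Becn1, Bnip3l, Map1lc3a and Pik3c3 were not among them. Only the core was searched, without its flanking bases. The genes compared were all those with a window, not only those that passed the count filter, as all 34 members did. In the 250 bases before the annotated start, CACGTG was present in 6 of the 28 (21.4%), namely Atg3, Atg5, Atg7, Bnip3, Lamp1 and Ctsl, against 6.86% of the 27025 genes with such a window. The windows of 4 of them are shown, 5′ to 3′ on the strand of the gene with each CACGTG in capitals, since they hold the gene with the smallest p, a mitophagy receptor, the densest group of matches and a conjugation enzyme. The windows lie before the RefSeq start, but the stretch of 30 bases given for Ctsl is inside the span of that gene in GENCODE M21. It overlaps 15 bases of GENCODE exons, and the Atg3 window overlaps 26. The Atg7 window, not shown, is also inside the span of its gene and overlaps 0 exon bases. It starts at 114670917 on chromosome 6, where the GENCODE gene starts at 114643097, and Atg7 is counted among the 6.
Ctsl, chr13:64370739-64370768, minus strand: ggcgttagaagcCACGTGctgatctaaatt
Bnip3, chr7:138909562-138909661, minus strand: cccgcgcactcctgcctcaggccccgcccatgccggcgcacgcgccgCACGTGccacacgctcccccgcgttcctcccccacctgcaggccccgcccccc
Lamp1, chr8:13159061-13159160, plus strand: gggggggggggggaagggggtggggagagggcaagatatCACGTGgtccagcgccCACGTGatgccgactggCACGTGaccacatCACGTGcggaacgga
Atg3, chr16:45158711-45158810, plus strand: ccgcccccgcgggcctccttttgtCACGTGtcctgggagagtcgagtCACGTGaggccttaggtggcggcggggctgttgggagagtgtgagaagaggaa
The Lamp1 window held 4 matches and the Atg3 window 2. The 6 genes with CACGTG had a median log2 fold change of -0.042, with 2 above 0 and 4 below, and the 22 without it had a median of 0.0057, with 11 on each side. The FoxO core GTAAACA, searched on both strands, was present in 0 of the 28 windows and in 3.54% of those of all genes, which says only that these letters are not in these windows.

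Of the lysosomal genes, Ctsl had the smallest p of the 34. It encodes cathepsin L, a lysosomal cysteine protease and a known FoxO target in wasting muscle (chromosome 13, 64359337 to 64370890). Vehicle mice 1 to 3 had 95.5, 72.4 and 76.4 CPM and inotodiol mice 1 to 3 had 54.4, 67.7 and 63.6 CPM. All 3 inotodiol values lay below the vehicle values, with vehicle 1 the highest and inotodiol 1 the lowest. The group means were 81.5 ± 12.3 and 61.9 ± 6.83 CPM (SD, n = 3). On the log2 scale inotodiol minus vehicle was -0.40 ± 0.16 (SE), with a 95% interval from -0.74 to -0.05. The unadjusted p was 0.029 and the adjusted p 0.96 in edgeR, and the adjusted p ranged from 0.67 to 1.00 over the alternatives. Without vehicle replicate 1 the log2 fold change was -0.27 with an unadjusted p of 0.15, and without inotodiol replicate 1 it was -0.31 with an unadjusted p of 0.11. Macrophages, fibroblasts and hepatocytes express Ctsl as well. Of 12 macrophage markers tested, 9 had a log2 fold change below 0, and none of the 13 listed was at 0 counts in every library. The 13 summed to 140, 114 and 294 CPM in vehicle mice 1 to 3 and 207, 72.6 and 116 CPM in inotodiol mice 1 to 3. Of 8 fibroblast markers 7 were below 0. They summed to 1014, 1146 and 1939 CPM in vehicle mice 1 to 3 and 1070, 982 and 1157 CPM in inotodiol mice 1 to 3. Both sums were highest in vehicle 3, where Ctsl stood at 76.4 CPM. Inotodiol 1, the lowest mouse for Ctsl, had the highest macrophage sum of the inotodiol mice. The part of these cells in the Ctsl difference, and that of the hepatocyte RNA given above, was not tested. Exons of Ctsl overlap Gm47123 on the opposite strand over 1742 bases and Gm49230 on the same strand over 395 bases, and the strand setting of the counting is not given in the sources used here.

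Transcripts of the lysosomal membrane proteins spanned a narrow range over the mice. Lamp1 had 515, 478 and 544 CPM in vehicle mice 1 to 3 and 474, 493 and 504 CPM in inotodiol mice 1 to 3, a log2 fold change of -0.063 ± 0.12. Lamp2, whose loss causes a vacuolar myopathy in humans, had 111, 103 and 110.0 CPM in vehicle mice and 104, 105 and 102 CPM in inotodiol mice. The groups overlapped for both, and the whole range over 6 mice spanned a ratio of 1.15 for Lamp1 and 1.09 for Lamp2. The log2 fold change of Lamp2 was -0.059 ± 0.13, with a 95% interval from -0.34 to 0.22.

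**Figure D2:**
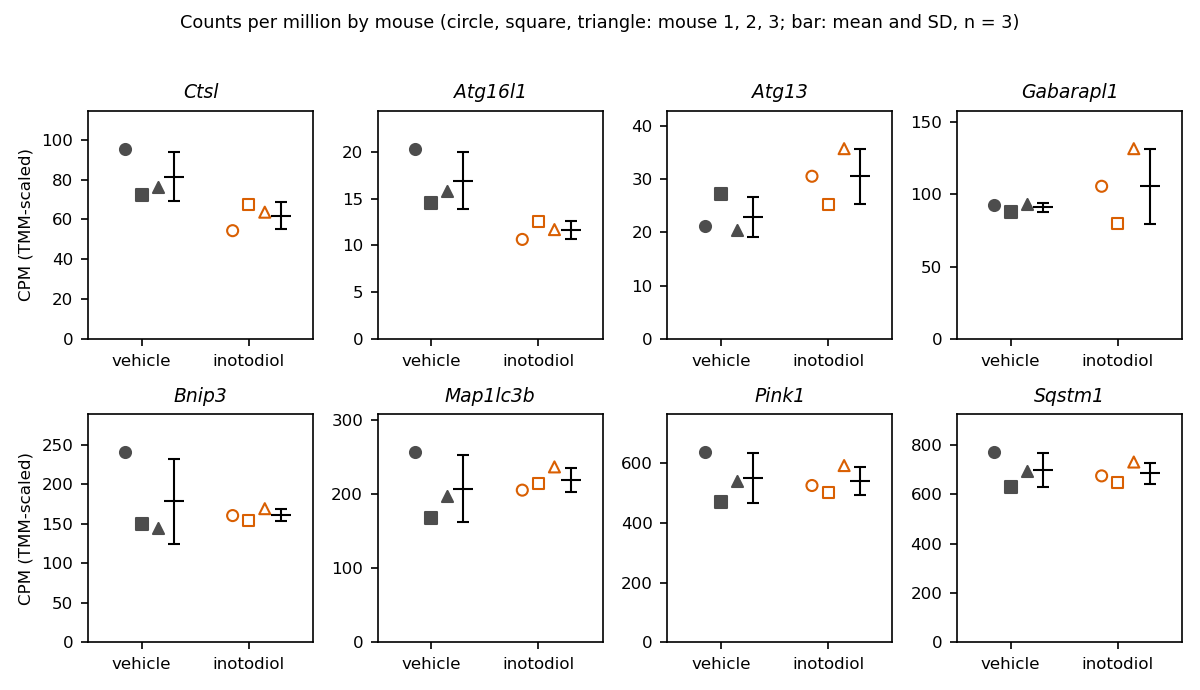
TMM-scaled CPM in each mouse for 8 of the genes, with vehicle mice as filled symbols, inotodiol mice as open symbols, and the mean with its SD (n = 3) beside each group. The groups are parted for Ctsl and Atg16l1 and overlap for the other 6, and vehicle 1 is the highest mouse for Ctsl, Atg16l1, Bnip3, Map1lc3b, Pink1 and Sqstm1.

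Of the 7 genes of initiation and nucleation, 3 had a log2 fold change above 0 and 4 below, none with an unadjusted p under 0.05. Ulk1, the kinase that starts autophagosome formation and is held in check by mTORC1 (chromosome 5, 110784488 to 110810097), had 136, 105 and 113 CPM in vehicle mice 1 to 3 and 100.2, 87.7 and 110.3 CPM in inotodiol mice 1 to 3. The groups overlapped through inotodiol 3, which lay above vehicle 2. Ulk1 stood at -0.25 ± 0.15 on the log2 scale, with a 95% interval from -0.57 to 0.08, and at -0.14 without vehicle replicate 1. Its paralog Ulk2 had a log2 fold change of -0.13 ± 0.14.

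Atg13, the subunit through which ULK1 binds its complex (chromosome 2, 91674618 to 91710576), was at the upper end of the 34. It had 21.2, 27.1 and 20.3 CPM in vehicle mice 1 to 3 and 30.5, 25.2 and 35.7 CPM in inotodiol mice 1 to 3. Inotodiol 2 lay below vehicle 2, and the other 2 inotodiol mice lay above all vehicle mice. Its log2 fold change was 0.41 ± 0.20 with a 95% interval from -0.02 to 0.85, an unadjusted p of 0.062 and an adjusted p of 0.96 in edgeR. With single libraries left out it ran from 0.28 without inotodiol replicate 3 to 0.56 without vehicle replicate 2. So Ulk1 and Atg13, subunits of the same kinase complex, had fold changes of opposite sign, neither of which passed the test.

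The lipid kinase complex was represented by Becn1, Pik3c3, Atg14 and the beclin regulator Ambra1. Becn1, the scaffold of the complex, had 54.5, 52.7 and 57.2 CPM in vehicle and 51.8, 59.8 and 52.8 CPM in inotodiol mice 1 to 3. Its group means were 54.8 ± 2.25 and 54.8 ± 4.38 CPM (SD, n = 3), and the 95% interval of its log2 fold change ran from -0.32 to 0.32, with a value of -0.12 under library totals. Exons of Becn1 overlap Cntd1 on the opposite strand over 3104 of their 7065 bases. Of the 34 genes, 10 have such exon overlap on the opposite strand and 3 on the same strand. The share of exon bases overlapped on the opposite strand was 28.32% for Gabarapl1, 22.25% for Bnip3 and 17.28% for Sqstm1. Exons of Atg9a share 1832 of their 5762 bases with Gm29253 on the same strand. What these overlaps add to the counts was not tested. The catalytic subunit Pik3c3 had a log2 fold change of -0.32 ± 0.28, in which inotodiol 2 was lowest at 8.21 CPM and vehicle 2 highest at 15.8 CPM. Pik3c3 stood at -0.58 without inotodiol replicate 1 and at -0.14 without inotodiol replicate 2. Atg14, which directs the complex to autophagy, had a log2 fold change of -0.13 ± 0.26 and Ambra1 one of 0.12 ± 0.30. For these 3 genes, all under 17 CPM in every mouse, the intervals reached past a 1.5-fold change in at least 1 direction.

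Membrane supply and recognition were represented by 4 genes, 3 of them above 0. Wipi2, which binds phosphatidylinositol 3-phosphate and recruits ATG16L1 to the growing membrane, had 13.4, 19.3 and 11.7 CPM in vehicle mice 1 to 3 and 18.2, 14.0 and 22.8 CPM in inotodiol mice 1 to 3. The groups overlapped and each spanned a wide range. The Wipi2 difference was 0.31 ± 0.26 on the log2 scale (95% interval from -0.25 to 0.87), and the value ran from 0.12 without inotodiol replicate 3 to 0.56 without vehicle replicate 2. Wipi1 had a log2 fold change of 0.15 ± 0.16, the lipid scramblase gene Atg9a one of 0.08 ± 0.18 and the lipid transfer gene Atg2a one of -0.23 ± 0.22, which was -0.061 without inotodiol replicate 1. With library totals Atg9a stood at -0.031.

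Of the 7 conjugation genes, Atg16l1 was the only one with an unadjusted p under 0.05. It encodes the protein that positions the ATG12 to ATG5 conjugate on the membrane where LC3 is attached (chromosome 1, 87755870 to 87792428). Vehicle mice 1 to 3 had 20.3, 14.6 and 15.8 CPM and inotodiol mice 1 to 3 had 10.6, 12.5 and 11.7 CPM. The groups did not overlap, and the gap between the lowest vehicle and the highest inotodiol mouse was small beside the range within the vehicle group. The group means were 16.9 ± 3.03 and 11.6 ± 0.954 CPM (SD, n = 3). On the log2 scale the difference was -0.54 ± 0.24 (SE), with a 95% interval from -1.05 to -0.03. The unadjusted p was 0.039 and the adjusted p 0.96 in edgeR, and the adjusted p ranged from 0.72 to 1.00 over the alternatives. Without vehicle replicate 1 the log2 fold change was -0.39 with an unadjusted p of 0.17. The unadjusted p was also above 0.05 without vehicle replicate 3 (0.051), without inotodiol replicate 1 (0.097), without inotodiol replicate 3 (0.066), with no filter (0.052) and with the replicate block (0.054).

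The other 6 conjugation genes stood between -0.022 and 0.20 on the log2 scale. The E1-like enzyme gene Atg7 had 14.3, 10.4 and 13.8 CPM in vehicle and 14.2, 13.2 and 13.8 CPM in inotodiol mice 1 to 3, a log2 fold change of 0.098 ± 0.24 (-0.024 with library totals). The ubiquitin-like modifier gene Atg12 stood at 0.20 ± 0.20, from 0.091 without inotodiol replicate 3 to 0.36 without inotodiol replicate 1, and its conjugation partner Atg5 stood at 0.060 ± 0.19 (-0.062 with library totals). The E2-like enzyme genes Atg3 and Atg10 stood at -0.022 ± 0.23 and -0.0016 ± 0.24, and the LC3 protease gene Atg4b at 0.013 ± 0.26 (-0.089 with library totals). Whether Atg16l1 differed from these 6 genes was not tested.

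The LC3 and GABARAP genes encode the ubiquitin-like proteins that coat the autophagosome and hold its cargo. Their median log2 fold change was -0.025, with 2 of 5 above 0. Map1lc3b, the usual marker of autophagosomes (chromosome 8, 121590361 to 121598760), had 257, 168 and 197 CPM in vehicle mice 1 to 3 and 205, 214 and 237 CPM in inotodiol mice 1 to 3. The inotodiol values lay inside the vehicle range, which vehicle 1 and vehicle 2 bounded. The log2 fold change was 0.079 ± 0.16 (95% interval from -0.26 to 0.42), and -0.040 with library totals. Without vehicle replicate 1 it was 0.26 with an unadjusted p of 0.11, and without vehicle replicate 2 it was -0.046.

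Gabarapl1, a FoxO-responsive member of the GABARAP branch (chromosome 6, 129533160 to 129542346), had 92.4, 87.7 and 93.0 CPM in vehicle mice 1 to 3 and 106, 79.8 and 132 CPM in inotodiol mice 1 to 3. The vehicle mice were close together and the inotodiol mice bracketed them, with an SD of 25.9 CPM against 2.92 CPM. The log2 fold change was 0.22 ± 0.17, with a 95% interval from -0.16 to 0.59, and it was 0.38 without inotodiol replicate 2 (unadjusted p of 0.036) and 0.025 without inotodiol replicate 3. Map1lc3a stood at -0.068 ± 0.14, Gabarap at -0.025 ± 0.14 and Gabarapl2 at -0.12 ± 0.16. Gabarap was the steadiest of the 5, from 80.3 to 89.1 CPM over the 6 mice.

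Cargo receptors tether ubiquitinated cargo to LC3. Sqstm1, which encodes p62 (chromosome 11, 50199366 to 50210827), had 771, 631 and 696 CPM in vehicle mice 1 to 3 and 675, 648 and 731 CPM in inotodiol mice 1 to 3. Its inotodiol values lay inside the vehicle range, and its log2 fold change of -0.030 ± 0.12 had a 95% interval from -0.29 to 0.23. Nbr1, a receptor of similar build, had 51.5, 59.5 and 57.5 CPM in vehicle and 42.5, 45.2 and 56.5 CPM in inotodiol mice 1 to 3. Inotodiol 3 lay among the vehicle mice and the other 2 below them, for a log2 fold change of -0.22 ± 0.17 (95% interval from -0.58 to 0.13). Optn, the receptor that acts with TBK1 in parkin-dependent mitophagy, stood at 0.23 ± 0.17, with 34.4 to 45.5 CPM in vehicle and 42.1 to 53.4 CPM in inotodiol mice.

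Of the 4 mitophagy genes, 2 were above 0 and 2 below, with a median of 0.017. Pink1, the kinase that marks depolarised mitochondria for parkin (chromosome 4, 138313409 to 138326307), had 636, 470.3 and 538 CPM in vehicle mice 1 to 3 and 524, 501 and 591 CPM in inotodiol mice 1 to 3. The inotodiol values lay inside the vehicle range. Its log2 fold change was -0.024 ± 0.14, with a 95% interval from -0.31 to 0.27, so a 1.5-fold change either way lay outside the interval.

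Bnip3, a receptor of the outer mitochondrial membrane induced by hypoxia and FoxO3 (chromosome 7, 138890836 to 138909519), had 240.5, 149.5 and 145 CPM in vehicle mice 1 to 3 and 160.3, 154 and 169 CPM in inotodiol mice 1 to 3. Vehicle 1 stood above the other 5 mice, which lay between 145 and 169 CPM. Bnip3 stood at -0.15 ± 0.18 on the log2 scale (95% interval from -0.53 to 0.24), and at 0.13 without vehicle replicate 1, so its sign rested on that mouse. Its paralog Bnip3l, also called Nix, had 49.7, 52.3 and 51.6 CPM in vehicle and 48.1, 52.1 and 59.6 CPM in inotodiol mice 1 to 3, a log2 fold change of 0.058 ± 0.16 (95% interval from -0.28 to 0.39) that was -0.053 with library totals. Fundc1, a receptor that responds to hypoxia, had 9.90, 15.5 and 17.9 CPM in vehicle and 16.6, 17.0 and 19.0 CPM in inotodiol mice 1 to 3. Its log2 fold change was 0.28 ± 0.25 (95% interval from -0.26 to 0.82), and 0.067 without vehicle replicate 1, the lowest mouse for that gene.

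High and low values gathered in particular mice. Of the 34 genes, 13 had their highest value in vehicle 1 (38.2%, against 17.6% of all genes), among them Ulk1, Map1lc3a, Map1lc3b, Sqstm1, Bnip3, Pink1, Lamp2 and Ctsl. Inotodiol 3 held the highest value of 8 (23.5%, against 19.7% of all genes). The lowest value fell in inotodiol 1 for 12 (35.3%, against 17% of all genes), among them Ulk2, Becn1, Atg3, Atg4b, Atg12, Nbr1, Bnip3l and Lamp1. These counts were the same with RLE and upper-quartile scaling, and with library totals they were 15 genes (23.8% of all genes) and 14 genes (25% of all genes). Vehicle 1 was also the lowest mouse for 4 genes, Wipi1, Optn, Fundc1 and Tfeb. The mean deviation of the 34 genes from their own means over 6 mice was 0.054 in vehicle 1, -0.00020 in vehicle 2, -0.032 in vehicle 3, -0.067 in inotodiol 1, -0.014 in inotodiol 2 and 0.059 in inotodiol 3 on the log2 scale, so the groups overlapped. Inotodiol 1 was the library with the most hepatocyte marker RNA and the largest share of Rn45s, and vehicle 1 that with the least of both. Rn45s took 3.97%, 6.82% and 4.38% in vehicle mice 1 to 3 and 10.2%, 9.56% and 4.33% in inotodiol mice 1 to 3. Hepatocyte markers summed to 39.1, 93.5 and 61.2 CPM and to 692, 293 and 109 CPM in the same order. Inotodiol 2 held the lowest value of 6 of the 34 genes (17.6%, against 15.6% of all genes). The part of Rn45s and hepatocyte RNA in these orders was not tested.

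The FoxO-driven ubiquitin ligase gene Fbxo32 was highest in vehicle 1 as well, with 1629, 1069 and 829 CPM in vehicle and 1257, 910.1 and 905 CPM in inotodiol mice 1 to 3. Trim63, the other ligase induced in wasting muscle, was lowest in that mouse, with 1345, 1777 and 1956 CPM in vehicle and 1699.6, 1368 and 1933 CPM in inotodiol mice 1 to 3. The median biological coefficient of variation, the spread between mice beyond counting error, was 16.6% for the 34 genes and 24.5% for all genes tested. The ratio of the highest to the lowest mouse had a median of 1.46 for the 34 genes and 1.86 for all genes. That ratio includes counting error, and the median count per library was 504 for the 34 genes against 126 for all genes tested. Neither measure was compared with genes of similar depth.

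**Figure D3:**
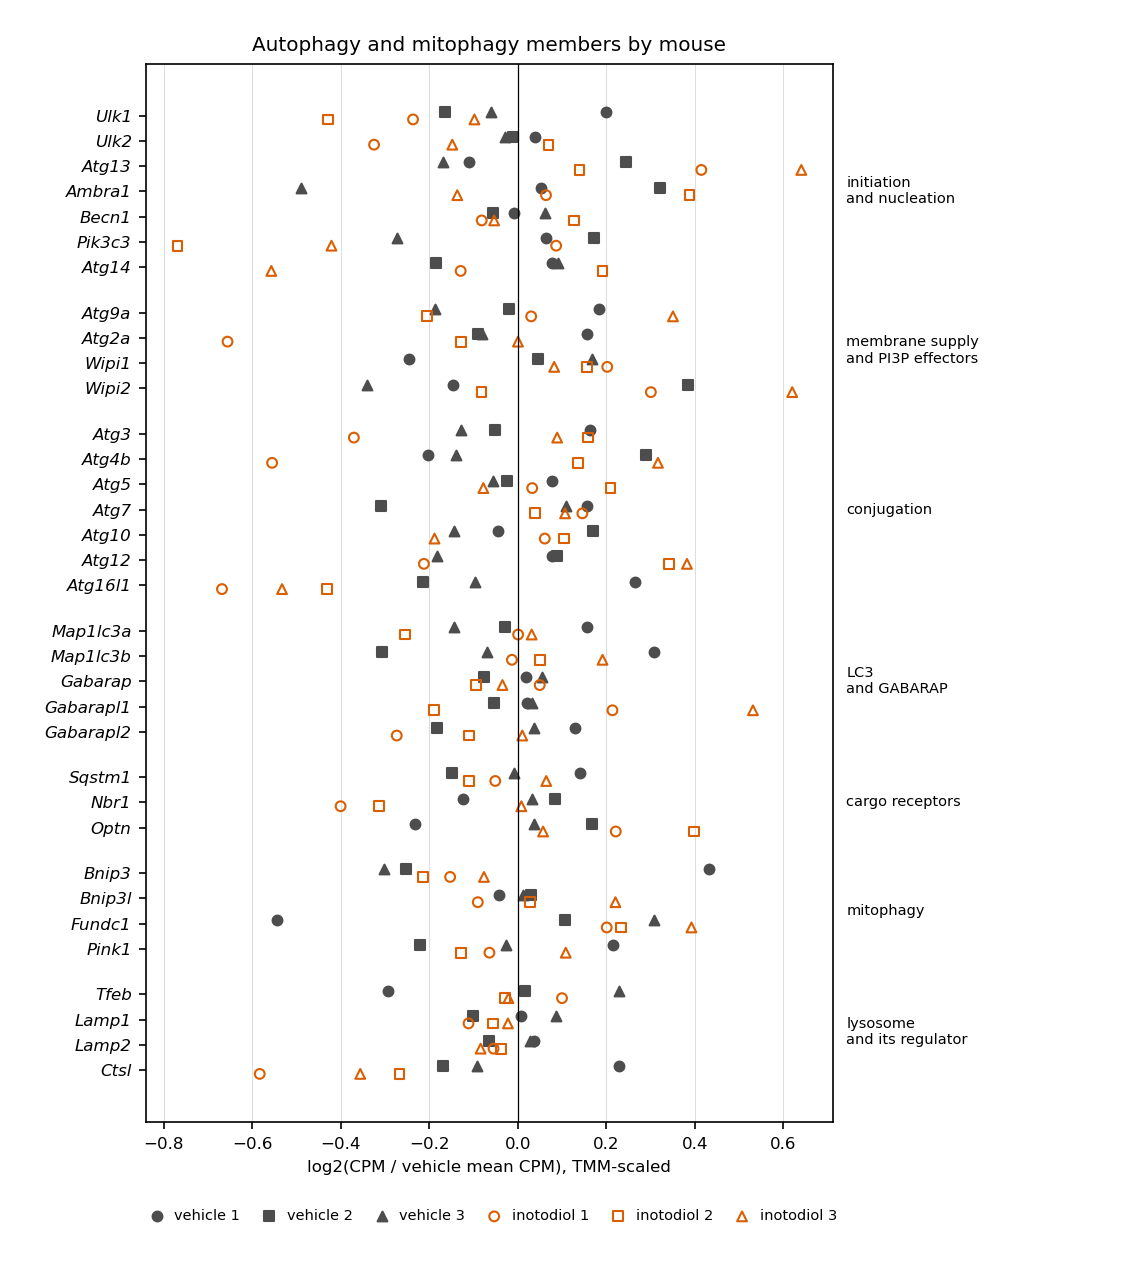
Log2 ratio of each mouse's TMM-scaled CPM to the vehicle mean for the 34 genes, grouped by role, with vehicle mice filled and inotodiol mice open. Open symbols lie wholly to the left of filled ones for Atg16l1 and Ctsl alone, and the vehicle 1 circle is the rightmost symbol for 13 genes.

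**Figure D4:**
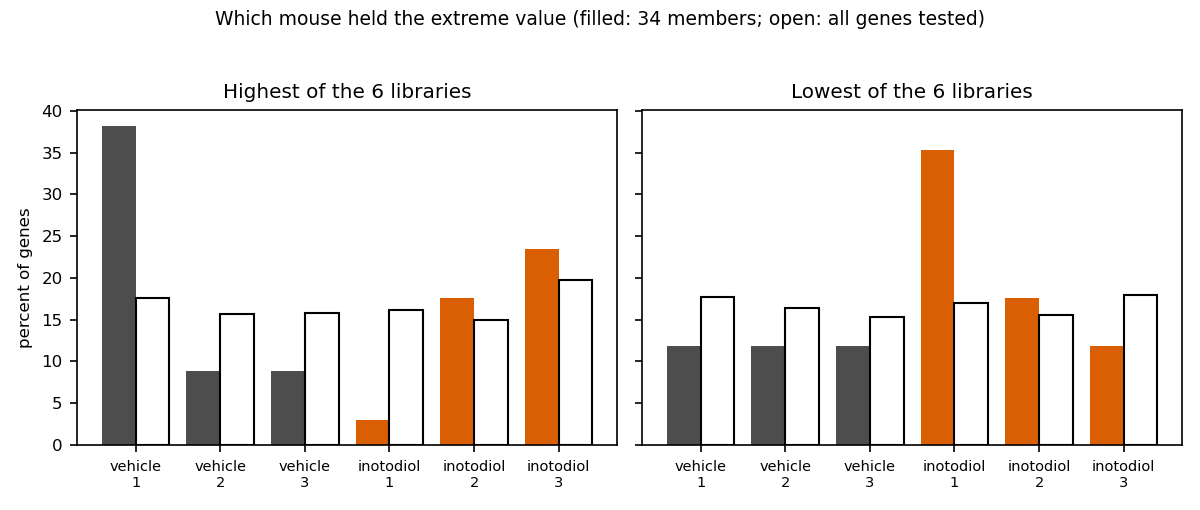
Percent of genes whose highest value (left) or lowest value (right) over 6 libraries fell in each library, for the 34 autophagy and mitophagy genes (filled bars) and all 11700 genes tested (open bars). The filled bars reach 38.2% for the highest value in vehicle 1 and 35.3% for the lowest value in inotodiol 1, where the open bars are at 17.6% and 17%.

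Other genes of the pathway, in 5 lists with 117 genes tested, had a median log2 fold change of -0.018, with 54 above 0 and 63 below. None passed the adjusted threshold in edgeR, and 3 had an unadjusted p under 0.05, all lower, against 2.21% of all genes in that direction. The groups did not overlap for 13, of which 11 were lower and 2 higher, beside 5.26% and 5.15% of all genes. Among 20 further genes of the machinery (median 0.017), Uvrag, a subunit of the beclin 1 complex that acts in autophagosome maturation, had 19.6, 17.2 and 25.6 CPM in vehicle and 15.6, 11.4 and 12.0 CPM in inotodiol mice 1 to 3. All its inotodiol values lay below the vehicle values, for a log2 fold change of -0.68 ± 0.24, an unadjusted p of 0.013 and an adjusted p of 0.94 in edgeR (0.52 to 1.00 over the alternatives), and the log2 fold change was -0.50 without vehicle replicate 3. Atg2b, a lipid transfer gene like Atg2a, stood at -0.34 ± 0.18 with groups that did not overlap, and the protease gene Atg4d at -0.28 ± 0.18.

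In the 13 genes of fusion with the lysosome (median 0.0100), the SNARE gene Snap29 stood at -0.53 ± 0.27 and the tethering complex genes Vps41 and Vps16 both at -0.33, with standard errors of 0.18 and 0.28. In 19 further receptor and mitophagy genes (median -0.020), Fam134b, a receptor for turnover of the endoplasmic reticulum, had 461, 481 and 495 CPM in vehicle and 429, 436 and 381 CPM in inotodiol mice 1 to 3, a log2 fold change of -0.21 ± 0.12. Tollip stood at -0.33 ± 0.21 and the deubiquitinase gene Usp15, which opposes parkin, at -0.22 ± 0.17.

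In 37 further lysosomal genes (median -0.028), the proton pump subunit gene Atp6v1a had 71.2, 78.7 and 61.0 CPM in vehicle and 48.7, 63.5 and 40.3 CPM in inotodiol mice 1 to 3. Its groups overlapped through inotodiol 2, and its log2 fold change was -0.47 ± 0.19 (unadjusted p of 0.025, adjusted p of 0.96 in edgeR). The cathepsin gene Ctsf had a log2 fold change of -0.56 ± 0.25 with groups that did not overlap (unadjusted p of 0.041, adjusted p of 0.96 in edgeR), and the pump gene Atp6v1b2 stood at -0.29 ± 0.16. Of the 37 genes, 17 were above 0 and 20 below. Groups did not overlap for 2 that were lower and 2 that were higher, beside 5.26% and 5.15% of all genes. The 2 higher genes also encode pump subunits, Atp6v0d1 at 0.28 ± 0.20 and Atp6v1e1 at 0.092 ± 0.13. Of 28 upstream regulators (median -0.051), 5 had groups that did not overlap, all lower, beside 5.26% of all genes parted in that direction. The smallest p belonged to Hif1a, which drives Bnip3 in hypoxia, at -0.51 ± 0.27. Rragc and Flcn, which couple amino acid supply to mTORC1 and to TFEB at the lysosome, stood at -0.33 ± 0.18 and -0.29 ± 0.16.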

How the data were processed

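The kit was Lexogen Quant-Seq with 500 ng of total RNA as input, per the labels' protocols. Bowtie2, bedtools and the mm10 build are named in the submitters' processing notes. Tool versions, annotation and strand setting are not stated in the sources used here. The deposited values are whole-number counts per gene symbol, and normalization by the authors is not stated. Genes were kept with edgeR's filterByExpr (minimum count 10, minimum total 15), normalised by TMM and compared in edgeR 4.0.16 under R 4.3.3 (glmQLFit, glmQLFTest, group as the only term, two-sided), with Benjamini-Hochberg adjustment over all 11700 genes. The 44 rows that repeated a symbol were kept apart. Standard errors and 95% intervals came from the fitted weights and the moderated dispersion. P-values set the group difference against the spread among 3 mice per group, moderated over all genes tested. The labels mark these mice as biological replicates.

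The members and lists were chosen with earlier results of these data known. Every member is reported. Values per mouse are given for members with an unadjusted p under 0.05, the smallest p of each role, and 11 set regardless of the result, and of the other lists the 3 genes with the smallest p are named. Some values of other members were added after they were seen, as were the counts of highest and lowest libraries and the pair Fbxo32 and Trim63. Gene positions are from GENCODE M21 (GRCm38, the assembly of mm10) and promoters from RefSeq. Alternatives were other scalings, filters and tests (DESeq2 1.42.0, limma-voom with limma 3.58.1), a replicate block, a threshold of 0.10 and each library left out.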

Additional observations from a re-analysis of the deposited data

How the results depend on the processing

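Under every alternative run, 0 of the 34 genes were called, also at a threshold of 0.10. The count over all genes was 0 except for 1 with DESeq2, 95 with no filter on low counts and, with single libraries left out, 0 to 25, the 25 arising without inotodiol replicate 3. The median of the 34 genes was -0.13 with library totals and -0.084 with library totals after removal of Rn45s, an alternative chosen after seeing the data. The median over all genes was then -0.12 and -0.074. No pairing of the mice by replicate number is named in the sources used here. Deviations of same-numbered mice correlated at -0.081, 0.11 and 0.022, and those of mice with different numbers at -0.13 to 0.097. With 3 mice per group these values cannot exclude a shared batch. With the replicate block 0 genes were called, and the unadjusted p was 0.039 for Ctsl and 0.054 for Atg16l1.

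Signs of fold changes near 0 were not stable. With library totals Becn1 stood at -0.12, Atg9a at -0.031, Atg4b at -0.089, Atg5 at -0.062, Atg7 at -0.024, Map1lc3b at -0.040, Bnip3l at -0.053 and Tfeb at -0.10, all above 0 with TMM. After removal of Rn45s Becn1 stood at -0.074, Atg4b at -0.053, Atg5 at -0.014, Bnip3l at -0.012 and Tfeb at -0.056. Becn1 was also below 0 with DESeq2 (-0.00020), RLE (-4.7e-05), upper quartile (-0.012), the stricter filter (-0.0012), limma-voom (-0.0036) and the replicate block (-0.0020), and Atg4b with limma-voom (-0.0089) and the replicate block (-0.013). Atg10 was 0.0025 with no filter. With single libraries left out, the values ran from -0.073 to 0.32 for Ambra1, -0.067 to 0.040 for Becn1, -0.33 to 0.039 for Atg14, -0.083 to 0.20 for Atg9a, -0.12 to 0.13 for Atg3, -0.17 to 0.23 for Atg4b, -0.021 to 0.12 for Atg5, -0.027 to 0.18 for Atg7 and -0.069 to 0.099 for Atg10. They ran from -0.14 to 0.017 for Map1lc3a, -0.046 to 0.26 for Map1lc3b, -0.063 to 0.0084 for Gabarap, -0.092 to 0.046 for Sqstm1, -0.28 to 0.13 for Bnip3, -0.031 to 0.13 for Bnip3l, -0.12 to 0.096 for Pink1 and -0.11 to 0.15 for Tfeb. Without a change of sign, single libraries moved Ulk1 from -0.33 to -0.14, Ulk2 from -0.23 to -0.035, Pik3c3 from -0.58 to -0.14, Atg2a from -0.37 to -0.061, Wipi1 from 0.039 to 0.24, Atg12 from 0.091 to 0.36, Gabarapl2 from -0.20 to -0.048, Nbr1 from -0.36 to -0.14, Optn from 0.13 to 0.33 and Lamp1 from -0.10 to -0.018. The cause was not tested. Precision was least for the 10 genes with a mean under 20 CPM, with standard errors from 0.23 to 0.30.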
